A study of Mus musculus with 20 samples.

Results

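The 10 genes described here encode actins, proteins that bind actin monomers or filaments, and membrane-bound proteins of the growth cone. They are Actb, Actg1, Cfl1, Pfn1, Pfn2, Tmsb4x, Tmsb10, Gap43, Marcks and Basp1. Each was found by its gene symbol, once, among the 39174 genes listed for every library, and all 10 were above 0 in all 20 libraries. Their levels were compared between the axonal and the somatodendritic compartment and between control and Tdp-43 knockdown motoneurons.

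Motoneurons were enriched from spinal cords of CD-1 mouse embryos with an antibody against p75 and cultured for 7 days in microfluidic chambers, where axons reach a separate compartment. Control cells carried an empty lentiviral vector, and knockdown cells a lentivirus with a short hairpin RNA against Tdp-43, the RNA-binding protein encoded by Tardbp. Both groups were thus transduced with lentivirus. RNA was taken from each compartment, amplified and sequenced, which gave 4 axonal and 4 somatodendritic libraries of control cells and 6 axonal and 6 somatodendritic libraries of knockdown cells. The labels number the libraries but name neither a culture nor a batch, so the tests measure the spread between libraries. They cannot tell a batch apart from the knockdown. The methods state that the control libraries also served an earlier study and that both groups were processed in parallel.

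Actin filaments push the front of a growing axon forward. Monomers are added at one end and leave at the other, and the pool of free monomers is held by thymosins, which sequester them, and by profilins, which hand them to growing filaments. Cofilin severs old filaments. Gap43, Marcks and Basp1 lie on the inner face of the growth cone membrane, bind phosphoinositides and are substrates of protein kinase C, and Gap43 and Basp1 are neuronal growth cone markers. The mRNA of Actb is a classical example of an mRNA carried into axons.

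Levels are FPKM (fragments scaled to transcript length and to the mapped fragments of the library) as the authors deposited them, so levels of different genes can be compared per length. Fold changes and adjusted p-values come from limma on log2(FPKM + 1) after each library was scaled by the median of its ratios to the other libraries, with Benjamini-Hochberg adjustment over all genes whose mean reached 1 FPKM, which all 10 did in every fit. A gene is called where the adjusted p is under 0.05.

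The files give an interval around each FPKM value, from which the depth of a library was worked out. Relative to the deepest library it was 0.530 to 0.675 in control axonal, 0.612 to 1.0 in control somatodendritic, 0.103 to 0.761 in knockdown axonal and 0.143 to 0.698 in knockdown somatodendritic libraries. Tardbp, the targeted gene, was at 30.8, 19.0, 29.6 and 29.9 FPKM in the somatodendritic libraries of control cells. In those of knockdown cells it was at 0.820, 5.23, 2.50, 6.96 and 8.54 FPKM and in 1 library listed at 0. The knockdown mean was 14.7% of control (exact permutation p = 0.00476, two-sided, the smallest that 210 splits allow). In axons Tardbp was at 32.3, 20.1, 32.3 and 13.4 FPKM in control and at 33.2, 1.21, 4.97, 13.1, 13.98 and 11.5 FPKM in knockdown libraries, or 52.9% of control (exact permutation p = 0.138). The library labelled knockdown axonal replicate 1, at 33.2 FPKM, was above every control library as deposited, and leaving it out gave 36.5% of the control level in axons (exact permutation p = 0.0159). After the scaling used for the tests below, axonal Tardbp was at 35.1% of control with all libraries (exact permutation p = 0.00952), and replicate 1, at 23.5, was above 1 of the 4 controls (39.7, 23.7, 41.5 and 15.5). Of 7 motoneuron markers, Chat, Isl2 and Mnx1 were listed at 0 in all 4 groups. Ret averaged 8.09 FPKM in control and 9.41 FPKM in knockdown somatodendritic libraries, and Isl1 2.45 and 2.68 FPKM. Prph (0.458 and 1.11 FPKM) and Slc5a7 (0.067 and 0 FPKM) were lower there. All 6 general neuron markers were present. Their summed level was 359 to 464 FPKM in control axonal and 1489 to 1549 FPKM in control somatodendritic libraries, and 297 to 1193 and 1225 to 2046 FPKM in those of knockdown cells. Markers of other cells were present too. The 9 genes of astroglia and progenitors summed to 603 to 920 FPKM in control axonal and 423 to 604 FPKM in control somatodendritic libraries, 4 genes of dividing cells to 94.4 to 179 and 49.1 to 69.3 FPKM, and 6 fibroblast genes to 11.9 to 47.9 and 1.94 to 12.5 FPKM. The astroglial sum rests on Vim (mean 448 FPKM in control axons, 150 FPKM in control somata and dendrites) and Nes (74.7 and 9.87 FPKM), and 6 of the 9 genes, Fabp7, Slc1a3 and Gfap among them, had a lower mean in control axons. The 4 oligodendrocyte lineage genes (8.02 to 41.3 against 49.8 to 93.0 FPKM) and the 6 microglial genes (from 0 to 18.3 against 19.0 to 45.6 FPKM) summed to less in control axonal than in control somatodendritic libraries. In these bulk libraries, fewer cells of a type and less RNA per cell cannot be told apart.

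Sequences that bear on the results are shown here. The first is the zipcode of Actb, the element in its 3′ untranslated region that the protein Igf2bp1 (ZBP1) is known to bind when it carries the mRNA to the cell periphery. It is shown because Actb was the 1 member called higher in axons than in somata and dendrites, a call that depends on the scaling. In GENCODE M21 on GRCm38 it lies at chr5:142903767-142903796 on the minus strand and starts at the 2nd base after the stop codon. Capitals mark the letters that were searched, CGGACT and ACACCC with any 18 bases between them.
Actb zipcode: CGGACTgttactgagctgcgttttACACCC
The pattern was searched on the sense strand of the transcripts of 21877 protein-coding genes, and 4 of them, or 0.0183%, hold it. Of the principal transcripts of the members and of Marcksl1, the Actb transcript holds it and that of Actg1 does not, although the coding sequences of Actb and Actg1 are identical at 1000 of 1128 bases (88.7%). The letters and the spacing searched are those of the Actb element itself, so the match in Actb was set in advance. Other spacings were not searched. A match is a description of the letters and not of binding in these cells.

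The second set is the coding sequences of the thymosins, whose balance differed between groups. Tmsb4x, on chromosome X, and Tmsb10, on chromosome 6, are separate genes, each with 44 codons and a stop codon. Capitals mark the 40 of 135 bases at which they differ.
Tmsb4x: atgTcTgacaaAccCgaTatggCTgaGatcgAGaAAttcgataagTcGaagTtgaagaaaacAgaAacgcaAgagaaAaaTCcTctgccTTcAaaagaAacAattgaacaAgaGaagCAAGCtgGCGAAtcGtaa
Tmsb10: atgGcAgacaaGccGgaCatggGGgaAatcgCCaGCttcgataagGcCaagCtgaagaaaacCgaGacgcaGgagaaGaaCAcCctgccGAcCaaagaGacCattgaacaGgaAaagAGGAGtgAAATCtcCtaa
The longest run that both thymosins share is 10 bases, against 12 for Pfn1 and Pfn2, 17 for Marcks and Marcksl1 and 62 for Actb and Actg1. How fragments that fit both actins were divided is not given in the sources used here, so the levels of Actb and Actg1 are less certain than those of the other pairs.

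Actb was the member with the highest mean level in control axons, at 2883 ± 1068 FPKM (SD, n = 4), and Tmsb10 came next at 695 ± 106 FPKM, with no overlap between these neighbours. Actg1 (375 FPKM), Tmsb4x (307 FPKM) and Pfn1 (284 FPKM) followed and overlapped each other in that order, as did Pfn1 and Gap43 (181 FPKM). Cfl1 (125 FPKM) overlapped neither Gap43 above it nor Basp1 (61.9 FPKM) below it, and Pfn2 (39.0 FPKM) and Marcks (13.9 FPKM) were last. In control somata and dendrites Actb (1670 ± 106 FPKM) and Tmsb10 (1596 ± 144 FPKM) overlapped at the top, and Gap43 was 3rd at 652 ± 52.0 FPKM. Basp1 was 6th there and 8th in axons, and Gap43 was 6th in axons, so that both stood lower in the axonal order. In knockdown somata and dendrites Tmsb10 was first at 2699 ± 247 FPKM, and its lowest library, at 2288 FPKM, was above the highest for Actb, at 2120 FPKM.

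**Figure D1:**
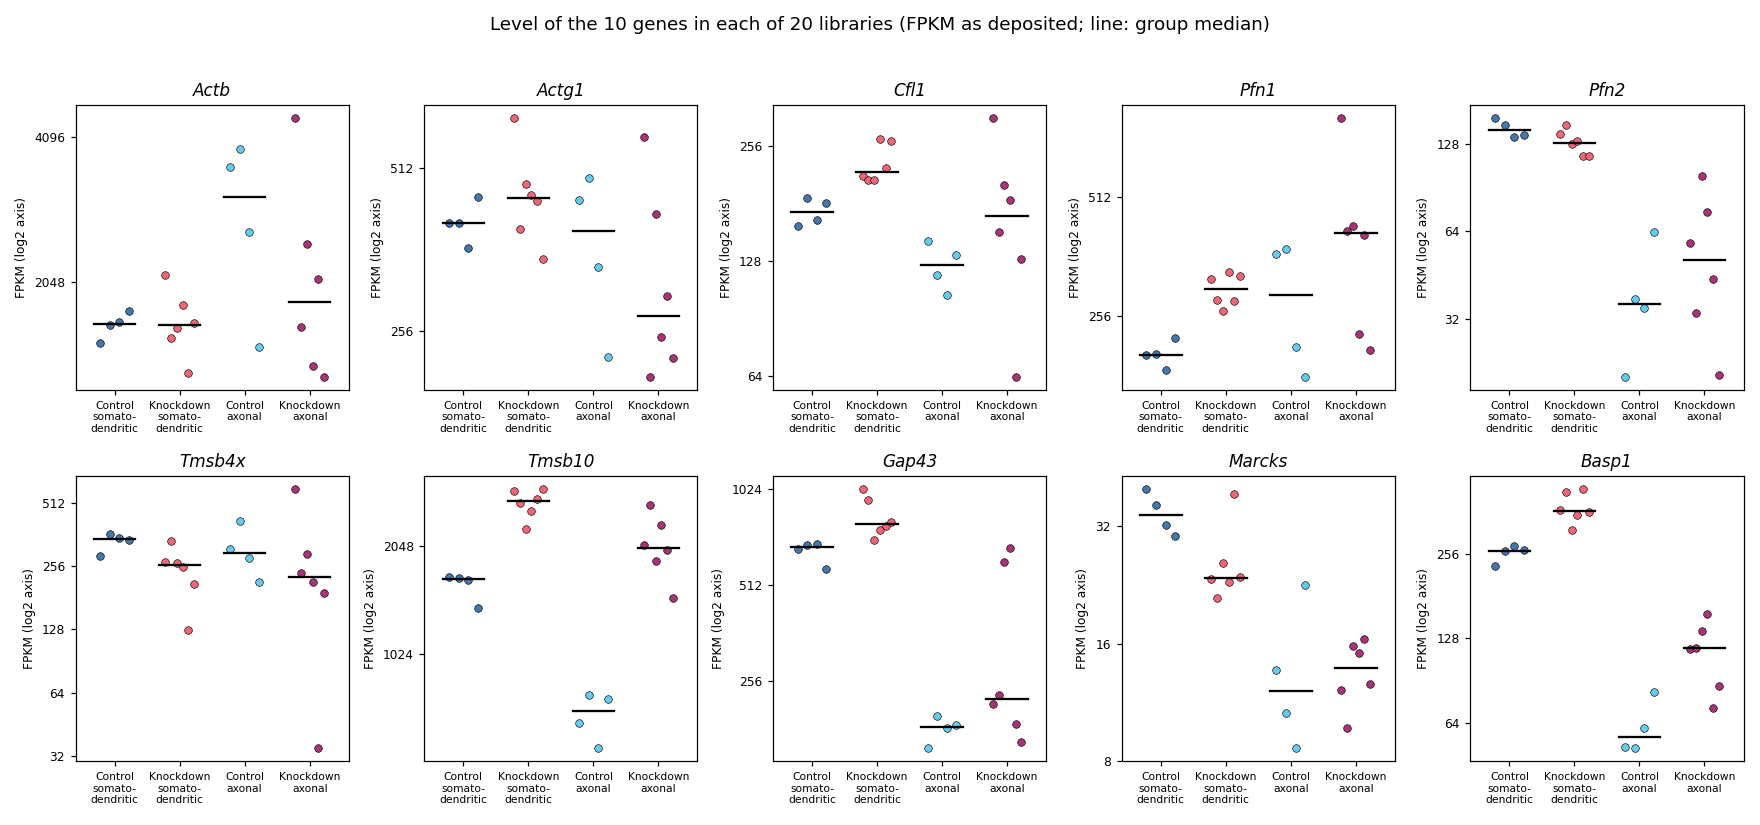
FPKM of each gene (vertical axis, log2 scale, a scale of its own for each gene) in the 4 control somatodendritic, 6 knockdown somatodendritic, 4 control axonal and 6 knockdown axonal libraries. A point is 1 library and a line the group median. The 4 control axonal points of Tmsb10, between 561 and 789 FPKM, lie below all others of that gene, and the axonal points of Gap43, Basp1 and Pfn2 lie mostly below the somatodendritic ones.

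The range of spreads reached highest in knockdown axons, although Actg1, Pfn2 and Marcks varied more in control axons. The coefficient of variation of the scaled levels was 5.23 to 14.3% over the 10 genes in control somatodendritic libraries, 8.94 to 42.997% in control axonal, 10.3 to 29.7% in knockdown somatodendritic and 21.0 to 63.1% in knockdown axonal libraries. Counting behind each value was unequal. The interval of Actb implies 92.8 to 1083 fragments in a knockdown axonal library, while that of Tmsb4x implies 0.79 in the shallowest, knockdown axonal replicate 5.

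The comparison of axons with somata and dendrites asks which of these mRNAs differ after each library is scaled by the median of its ratios. That is not the same as their part of all RNA. In control cells 1 member, Actb, was called higher in axons and 3, Pfn2, Gap43 and Basp1, were called lower, while 1.44% of 14062 genes were called higher and 0.661% lower. At an unadjusted p under 0.05, 2 members were higher (Actb and Pfn1) and 5 lower (Pfn2, Tmsb10, Gap43, Marcks and Basp1), at a background of 8.09% and 7.31%. The median log2 difference of the members was -0.25, against -0.03 over all genes tested.

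Actb, the main cytoplasmic actin of growth cones, was at 3549, 3878, 2602 and 1501 FPKM in control axons and at 1533, 1666, 1693 and 1790 FPKM in control somata and dendrites. In 3 axonal libraries it was above every somatodendritic one, and the other, replicate 4, was below them all. The fitted difference was 1.29 on the log2 scale (SE 0.30, 2.44-fold, adjusted p = 0.0233). With the FPKM as deposited the difference was 0.70 (adjusted p = 0.224) and after quantile normalization 0.92 (adjusted p = 0.200), so the call depends on how the compartments are scaled to each other. It was kept in 14 of 20 fits that left out 1 library (adjusted p = 0.00344 to 0.0893 in limma) and lost without any one of replicates 1, 2 and 3 of either control group. In knockdown cells the axonal level had a lowest value of 1302, a median of 1868 and a highest of 4494 FPKM, against 1326, 1668 and 2120 FPKM in somata and dendrites, and the groups overlapped (log2 difference 0.52, SE 0.24, adjusted p = 0.223). Actg1, the other cytoplasmic actin, was at 446, 490, 337 and 229 FPKM in control axons and at 404, 406, 365 and 453 FPKM in control somata and dendrites. These groups overlapped (log2 difference 0.42, SE 0.26, adjusted p = 0.464; -0.17 with the FPKM as deposited).

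Cfl1, the non-muscle cofilin, was at 104 to 144 FPKM in control axons and at 158 to 187 FPKM in control somata and dendrites as deposited. Those values do not overlap, but after scaling the log2 difference was 0.11 (SE 0.28, adjusted p = 0.907), and the direction turned with the FPKM as deposited (-0.47, adjusted p = 0.431). Its direction is thus set by the scaling, and no call was made.

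Of the profilins, Pfn2 was called lower in axons and Pfn1 was not called. Pfn2, the more neuronal of these profilins, was lower than Pfn1 in every library. It was at 20.2, 37.3, 34.8 and 63.6 FPKM in control axons and at 157, 148, 134 and 137 FPKM in control somata and dendrites. Every axonal value was less than the lowest somatodendritic one (log2 difference -1.39, SE 0.33, 0.382-fold, adjusted p = 0.0284). That call was lost without any one of control axonal replicates 1, 2 and 3 or of the 4 control somatodendritic libraries, with a highest adjusted p of 0.118 in limma. In knockdown cells it had a lowest value of 20.5, a median of 50.9 and a highest of 99.1 FPKM in axons and of 116, 129 and 149 FPKM in somata and dendrites, again apart (-1.14, SE 0.27, adjusted p = 0.0172; 0.0536 without libraries under a relative depth of 0.5 and 0.0571 when only knockdown libraries were fitted). Pfn1, the profilin found in most cell types, was at 366, 377, 213 and 179 FPKM in control axons and at 203, 204, 186 and 224 FPKM in control somata and dendrites. These groups overlapped, and the difference of 0.99 (SE 0.31) did not pass adjustment (adjusted p = 0.0984; 0.0372 without control axonal replicate 4).

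The thymosins were not called between compartments. Tmsb10 was at 660, 789, 561 and 770 FPKM in control axons and at 1680, 1674, 1648 and 1380 FPKM in control somata and dendrites. The deposited values did not overlap, and the scaled difference was -0.62 (SE 0.22, unadjusted p = 0.0100, adjusted p = 0.151 in limma). Tmsb4x was at 311, 421, 281 and 215 FPKM in control axons and at 289, 366, 349 and 343 FPKM in control somata and dendrites, which overlapped (0.42, SE 0.49, adjusted p = 0.758; -0.17 with the FPKM as deposited).

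The neuronal growth cone proteins were lower in axons. Basp1 was at 52.4, 51.9, 61.1 and 82.1 FPKM in control axons and at 232, 261, 273 and 264 FPKM in control somata and dendrites. Its groups lay far apart (log2 difference -1.48, SE 0.23, 0.359-fold, adjusted p = 0.00188), and the call was kept in all 20 fits that left out 1 library. In knockdown cells the lowest, median and highest values were 72.1, 118 and 156 FPKM in axons and 310, 363 and 434 FPKM in somata and dendrites (-1.49, SE 0.19, adjusted p = 0.000275). Gap43 was at 157, 199, 182 and 186 FPKM in control axons and at 663, 683, 685 and 575 FPKM in control somata and dendrites. It too did not overlap (-1.25, SE 0.32, 0.419-fold, adjusted p = 0.0379), but without any one of the 8 control libraries the call was lost (adjusted p up to 0.118 in limma, with changes of -1.34 to -1.19), as it was with a pseudocount of 0.1 (0.0517) and with no filter on low values (0.0603). In knockdown axons its lowest, median and highest values were 165, 224 and 666 FPKM, with replicates 3 and 4 at 604 and 666 FPKM and the other 4 libraries at or under 231 FPKM, against 707, 794 and 1021 FPKM in knockdown somata and dendrites (-1.25, SE 0.26, adjusted p = 0.00805; 0.0527 when only knockdown libraries were fitted). Marcks, which is made in many cell types, was at 8.62 to 22.6 FPKM in control axons and at 30.3 to 39.9 FPKM in control somata and dendrites, but the scaled difference of -0.79 (SE 0.32) missed the threshold (adjusted p = 0.217). In knockdown cells it was -0.62 (SE 0.26, adjusted p = 0.169).

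Knockdown cells had 3 members called lower in axons, Pfn2, Gap43 and Basp1, and none called higher by limma, at a background of 2.42% of genes lower and 2.93% higher. These 3 calls were kept in all 20 fits that left out 1 library. At an unadjusted p under 0.05, 2 members were higher (Actb and Pfn1) and 4 lower (Pfn2, Gap43, Marcks and Basp1), where 9.52% and 11.1% of genes were. The 3 genes lower in axons of both conditions moved with the summed level of the neuron markers, which was lower in every axonal than in any somatodendritic library of the same condition. The sums for dividing cells and fibroblasts had higher medians in control axonal than in control somatodendritic libraries (121 against 57.4 and 33.0 against 2.26 FPKM), with all 4 and 4 of 6 genes higher by mean. The astroglial sum was higher too (691 against 445 FPKM), with 3 of 9 genes higher, while the oligodendrocyte lineage (18.5 against 85.0 FPKM) and microglial sums (3.19 against 30.9 FPKM) were lower. In knockdown cells the medians were 88.3 against 46.8 FPKM for dividing cells, 52.2 against 4.39 FPKM for fibroblasts, 571 against 397 FPKM for astroglia and 14.999 against 54.1 FPKM for the oligodendrocyte lineage. The microglial medians were closer there (19.0 against 25.3 FPKM), and 4 of the 6 genes had a higher mean in axons, against 0 of 6 in control cells. The part of these markers in the differences was not tested.

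Knockdown against control asks whether loss of Tdp-43 altered the level of these mRNAs within a compartment. Both comparisons use control libraries that also serve the comparison of compartments. In somata and dendrites 1 member was called higher, Tmsb10, and none lower, at a background of 0.218% of 13762 genes called higher and 0.756% lower. At an unadjusted p under 0.05, 3 members were higher (Pfn1, Tmsb10 and Basp1) and 3 lower (Pfn2, Tmsb4x and Marcks), where the background was 4.59% higher and 9.22% lower. The median log2 change was 0.04 for the members and -0.13 for all genes tested. In axons no member was called, while 0.0143% of 13958 genes were called higher and 0.387% lower. At an unadjusted p under 0.05 limma found 1 member higher (Tmsb10) and 2 lower (Actb and Actg1), at a background of 2.14% and 6.46%. The median there was -0.14 for the members and -0.17 for all genes.

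Tmsb10 was the 1 member called between knockdown and control, in somata and dendrites. In somata and dendrites it was at 1680, 1674, 1648 and 1380 FPKM in control libraries and had a lowest value of 2288, a median of 2737 and a highest of 2952 FPKM in knockdown libraries. All 6 knockdown libraries were above all 4 controls (log2 change 0.54, SE 0.11, 1.46-fold, adjusted p = 0.0458). The p lies at the threshold. It passed in 2 of the 10 fits that left out 1 library, those without knockdown replicate 3 or 6, and was 0.0453 to 0.152 over them, was 0.00274 with the FPKM as deposited and was 0.0690 without libraries under a relative depth of 0.5. The call was also lost with a pseudocount of 0.1 (adjusted p = 0.0724), with no filter on low values (0.0956) and with all 20 libraries in 1 fit (0.541). In axons Tmsb10 was at 660, 789, 561 and 770 FPKM in control and at 1470, 2028 and 2665 FPKM (lowest, median, highest) in knockdown libraries. Here too the groups did not overlap, and the fitted change was larger, 1.04 (SE 0.29, 2.05-fold, unadjusted p = 0.00257), but it did not pass adjustment over all genes (adjusted p = 0.226 in limma). It passed with the FPKM as deposited (1.56, adjusted p = 0.0142) and with all 20 libraries in 1 fit (1.01, adjusted p = 0.00850), and had an adjusted p of 0.153 to 0.591 under the other settings and without 1 library in limma.

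Tmsb4x was not called in either compartment. Its somatodendritic values were 289, 366, 349 and 343 FPKM in control libraries and 127, 260 and 339 FPKM (lowest, median, highest) in knockdown libraries, with a log2 change of -0.73 (SE 0.23, adjusted p = 0.166). The lowest were those of the shallow knockdown replicates 5 and 6, at 127 and 210 FPKM. In axons knockdown values ran from 34.7 FPKM in replicate 5 to 599 FPKM in the library labelled replicate 1, with a median of 227 FPKM (-1.11, SE 0.53, adjusted p = 0.596). The change was -0.62 without knockdown axonal replicate 5 and -1.38 without the library labelled replicate 1.

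Profilins and cofilin had smaller differences. Pfn1 was at 203, 204, 186 and 224 FPKM in control and at 263, 299 and 331 FPKM (lowest, median, highest) in knockdown somata and dendrites. The groups were apart, and the log2 change was 0.33 (SE 0.12, adjusted p = 0.218; 0.54 and adjusted p = 0.0360 with the FPKM as deposited). Pfn2 was at 157, 148, 134 and 137 FPKM in control and at 116, 129 and 149 FPKM in knockdown somata and dendrites. It overlapped as deposited and was lower in all 6 knockdown libraries after scaling (-0.37, SE 0.13, adjusted p = 0.207). Cfl1 differed by 0.20 (SE 0.13, adjusted p = 0.548). In axons the changes of Pfn1 (-0.04), Pfn2 (-0.09) and Cfl1 (-0.19) were each smaller than their standard errors and turned positive with the FPKM as deposited (0.48, 0.42 and 0.33).

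The actins had lower fitted levels in knockdown axons, with no call. Actb had a lowest value of 1302, a median of 1868 and a highest of 4494 FPKM in knockdown axons against 3549, 3878, 2602 and 1501 FPKM in control axons. The highest knockdown value, in the library labelled replicate 1, was above all controls, and the other 5, at up to 2459 FPKM, overlapped with the lowest control (log2 change -0.95, SE 0.36, unadjusted p = 0.0178, adjusted p = 0.449 in limma). Actg1 had a lowest value of 210, a median of 273 and a highest of 585 FPKM in knockdown axons against 446, 490, 337 and 229 FPKM in control axons (-0.74, SE 0.32, adjusted p = 0.529). In somata and dendrites Actb differed by -0.20 (SE 0.13, adjusted p = 0.536) and Actg1 by -0.06 (SE 0.14, adjusted p = 0.893), and with the FPKM as deposited both differences were above 0 (0.01 and 0.15).

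Among the growth cone proteins, Basp1 was at 232, 261, 273 and 264 FPKM in control and at 310, 363 and 434 FPKM (lowest, median, highest) in knockdown somata and dendrites, without overlap (log2 change 0.32, SE 0.12, adjusted p = 0.240; 0.53 and adjusted p = 0.0470 with the FPKM as deposited). Marcks was at 39.9, 36.4, 32.2 and 30.3 FPKM in control and at 20.9, 23.6 and 38.8 FPKM in knockdown somata and dendrites. All its knockdown libraries but 1 were below all controls, and that one, replicate 5, at 38.8 FPKM, was among the highest (-0.63, SE 0.20, adjusted p = 0.165). Gap43 differed by 0.14 (SE 0.13, adjusted p = 0.676). In axons Basp1 (0.34, SE 0.32), Gap43 (0.17, SE 0.39) and Marcks (-0.44, SE 0.42) had adjusted p-values of 0.809, 0.925 and 0.806.

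After scaling, every knockdown somatodendritic library was above every control library for 3 members, Pfn1, Tmsb10 and Basp1, where 1.9% of all genes were so placed. Every one was below for Pfn2, as for 3.6% of genes. In axons 1 member, Tmsb10, had all knockdown libraries above the controls, as had 0.451% of genes, and no member had all below, as had 2.02% of genes.

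The effect of the knockdown was not shown to differ between compartments for any member. In the test of that difference no member was called, at a background of 0.0% of 14062 genes higher and 0.0711% lower, and limma's unadjusted p was under 0.05 for 1 member, Actg1, which was lower, where 2.75% of genes were higher and 2.86% lower (difference -0.71, SE 0.33, unadjusted p = 0.0455, adjusted p = 0.884). For Actb it was -0.77 (SE 0.38, adjusted p = 0.911) and for Tmsb10 0.47 (SE 0.28, adjusted p = 0.935). Markers moved with the knockdown too. The 5 nuclear RNAs listed summed to 445 to 764 FPKM in control axonal and 1159 to 2329 FPKM in knockdown axonal libraries. That gap lies in Malat1, at 312 to 489 FPKM in control and 1041 to 1800 FPKM in knockdown axonal libraries. Meg3, Neat1, Snhg11 and Miat each overlapped between these groups. In somata and dendrites the sums had no such gap (789 to 1165 and 680 to 1383 FPKM). The astroglia and progenitor markers summed to 423 to 604 FPKM in control and 268 to 512 FPKM in knockdown somatodendritic libraries, where the mean of Fabp7 was 173 and 93.7 FPKM and that of Gfap 9.36 and 22.4 FPKM. They summed to 278 to 1248 FPKM in knockdown axonal libraries, and the neuron markers varied as given above. The microglial sum was 0 to 18.3 FPKM (median 3.19 FPKM) in control and 3.30 to 74.9 FPKM (median 19.0 FPKM) in knockdown axonal libraries, and the sum for dividing cells was 94.4 to 179 and 19.3 to 253 FPKM. Their part in the values of the 10 genes was not tested.

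**Figure D2:**
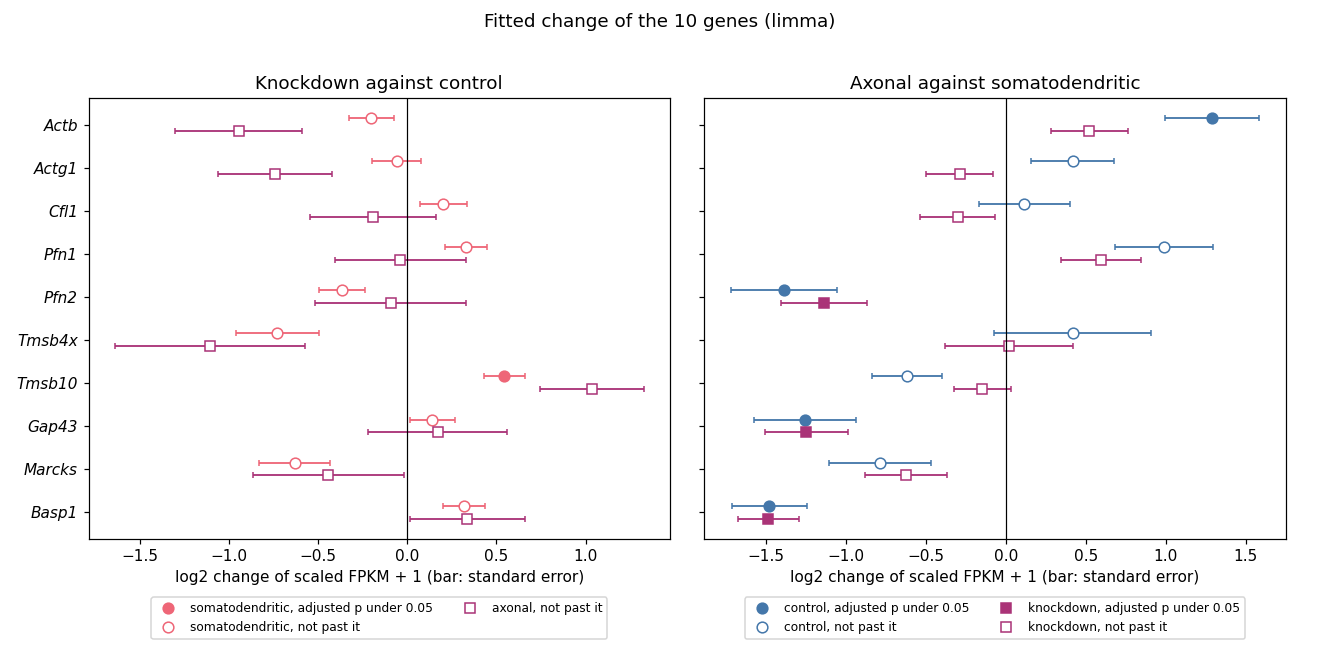
Fitted log2 change of each gene (horizontal axis, bars are standard errors) for knockdown against control on the left, in somata and dendrites (circles) and axons (squares), and for axonal against somatodendritic libraries on the right, in control (circles) and knockdown cells (squares). Filled symbols have an adjusted p under 0.05. On the left Tmsb10 in somata and dendrites is filled, at 0.54, and on the right Pfn2, Gap43 and Basp1 are filled below 0 in both conditions and Actb above 0 in control cells.

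The balance of related genes was compared as the ratio of their FPKM within a library, which does not depend on how libraries are scaled to each other. The members form 3 pairs, and Marcks was set against its relative Marcksl1. Groups were compared on log2 ratios by two-sided exact permutation of libraries, and p-values were adjusted over the 16 comparisons of 4 pairs. For 4 control axonal against 4 control somatodendritic libraries the smallest p is 0.0286, which after adjustment together with the other p-values found was 0.0508, so the control compartments did not pass for any pair.

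Tmsb4x was at 0.172, 0.219, 0.212 and 0.248 of the level of Tmsb10 in control somata and dendrites. In knockdown somata and dendrites the ratio was 0.0459, 0.0957 and 0.125 (lowest, median, highest), below all controls. The mean log2 ratio fell by 1.28 (0.413-fold, exact permutation p = 0.00476, adjusted p = 0.0190). Without knockdown replicate 3 the adjusted p was 0.0508 (0.0254 to 0.0508 over the 10 exact tests that left out 1 library), and without the knockdown libraries under a relative depth of 0.5 it fell by 0.97 (adjusted p = 0.0508, the groups still apart). With medians in place of means it fell by 1.17 (adjusted p = 0.102, exact permutation). In axons the ratio was 0.471, 0.534, 0.501 and 0.279 in control and 0.0173, 0.111 and 0.291 in knockdown libraries. Here 1 value overlapped, that of the library labelled knockdown axonal replicate 1, and the difference of -2.15 (exact permutation p = 0.0190) had an adjusted p of 0.0508. Without that library it was -2.47 (adjusted p = 0.0254 by exact permutation), the 1 of 10 tests without 1 library that passed (-2.47 to -1.65, adjusted p up to 0.106). The lowest ratio is that of replicate 5, with 0.79 implied Tmsb4x fragments, without which the difference was -1.65 (adjusted p = 0.0508, exact permutation). Without the axonal libraries under a relative depth of 0.5 it was -1.25 (adjusted p = 0.125, exact permutation). Between control axons and control somata and dendrites the log2 ratio differed by 1.04 (adjusted p = 0.0508, exact permutation), with no overlap, and in knockdown cells by 0.16 (adjusted p = 0.904).

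Pfn1 was at 1.30, 1.38, 1.39 and 1.64 times the level of Pfn2 in control somata and dendrites, and at 1.89, 2.35 and 2.78 times (lowest, median, highest) in knockdown ones. The groups were apart (log2 difference 0.70, 1.63-fold, exact permutation p = 0.00476, adjusted p = 0.0190), and over the 10 comparisons without 1 library the difference was 0.65 to 0.77 (adjusted p = 0.0254 to 0.0476, exact permutation). Without the knockdown libraries under a relative depth of 0.5 it was 0.62 (adjusted p = 0.0508, exact permutation). In control axons the ratio was 18.1, 10.1, 6.12 and 2.81, and in knockdown axons 3.09, 9.80 and 13.96. Control and knockdown axons thus overlapped nearly whole (0.06, exact permutation p = 0.919). The axonal ratio was above the somatodendritic one in every library of both conditions, by 2.40 in control (adjusted p = 0.0508) and 1.75 in knockdown cells (adjusted p = 0.0173, exact permutation; 0.0508 at that depth limit).

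Actb was at 7.96, 7.92, 7.73 and 6.54 times the level of Actg1 in control axons and at 3.79, 4.11, 4.64 and 3.95 times in control somata and dendrites. No axonal value reached as low as a somatodendritic one (log2 difference 0.87, 1.83-fold, adjusted p = 0.0508, exact permutation). In knockdown cells the ratio was 5.52, 6.42 and 7.88 in axons and 2.98, 3.70 and 4.86 in somata and dendrites, again apart (0.81, 1.76-fold, exact permutation p = 0.00216, adjusted p = 0.0173; 0.0508 at the same depth limit). Knockdown against control gave -0.14 in somata and dendrites (exact permutation p = 0.329) and -0.20 in axons (p = 0.152).

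Marcks was at 0.394, 0.554, 0.324 and 0.283 of the level of Marcksl1 in control somata and dendrites and at 0.132, 0.153 and 0.291 of it (lowest, median, highest) in knockdown ones. One knockdown library, replicate 5, reached into the control range. The log2 ratio fell by 1.17 (0.444-fold, exact permutation p = 0.00952, adjusted p = 0.0305). This held in 2 of the 10 exact tests that left out 1 library, those without control replicate 4 or knockdown replicate 5, and the adjusted p ran up to 0.0635. At the same depth limit the log2 ratio fell by 1.37 (adjusted p = 0.0508, exact permutation). Marcksl1 itself was at 93.4 ± 18.8 FPKM (SD, n = 4) in control and 153 ± 16.7 FPKM (n = 6) in knockdown somata and dendrites. In axons the ratio differed by -0.07 (exact permutation p = 0.848).

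**Figure D3:**
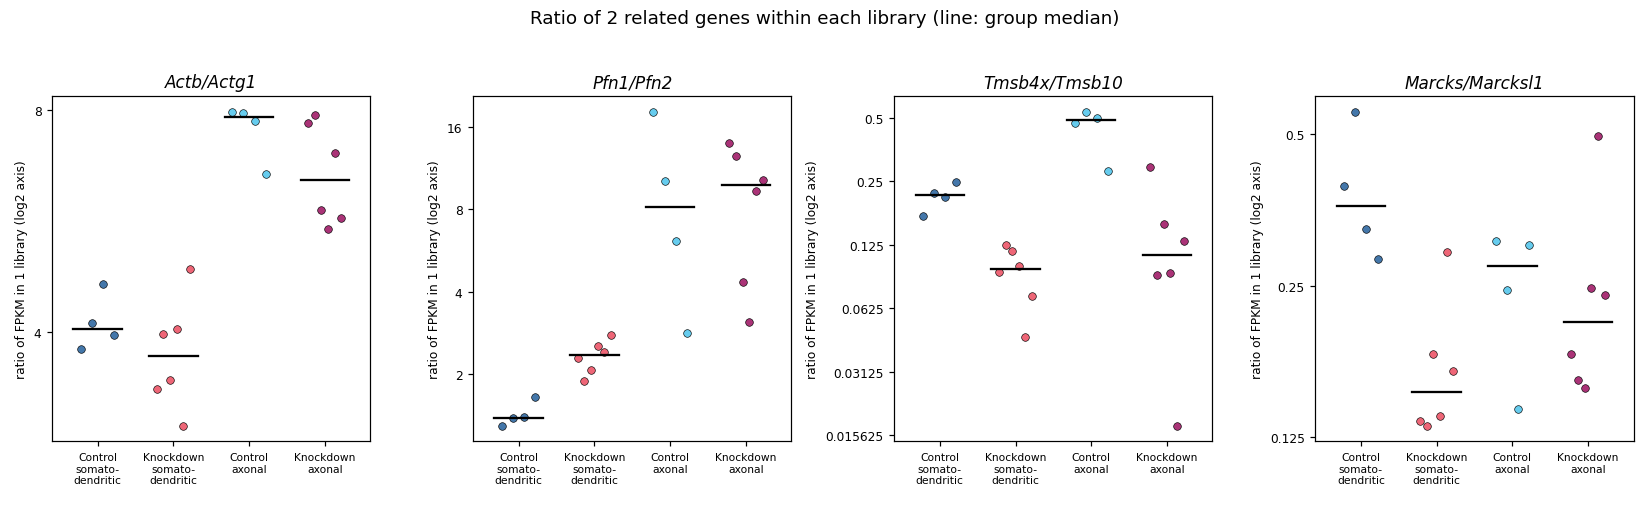
Ratio of the FPKM of related genes within each library (vertical axis, log2 scale), for 4 pairs in the 4 groups, where a point is 1 library and a line the group median. For Tmsb4x/Tmsb10 all knockdown somatodendritic points, at 0.0459 to 0.125, lie below the control ones, at 0.172 to 0.248, and for Actb/Actg1 all axonal points lie above all somatodendritic ones.

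Other genes of actin assembly and of growth cones were taken from 6 lists with 112 genes in the files. For knockdown against control in somata and dendrites 103 were tested, and 1 was called, Crmp1, a collapsin response mediator that transmits semaphorin signals, which rose (564 ± 40.7 FPKM in control, 920 ± 65.3 FPKM in knockdown libraries, log2 change 0.49, SE 0.09, adjusted p = 0.0228), where 0.218% of all genes were called higher and 0.756% lower. At an unadjusted p under 0.05, 9 were higher and 9 lower, where 4.59% and 9.22% of all genes were. In axons none of 101 was called by limma, and 1 was higher and 9 lower at an unadjusted p under 0.05, where 2.14% and 6.46% of all genes were. The median log2 change of the lists together was -0.05 in somata and dendrites and -0.33 in axons, against -0.13 and -0.17 over all genes.

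Between compartments the lists parted by kind. Of 27 genes for crosslinking, the membrane skeleton and contraction, 10 were called higher and none lower in control axons, where 1.44% and 0.661% of all genes were, with a median log2 difference of 1.30 against -0.03 over all genes. The filamin Flna (412 ± 59.7 against 69.9 ± 25.2 FPKM, log2 difference 3.18, adjusted p = 0.000697), the crosslinker Actn1 (3.31) and the tropomyosin Tpm2 (3.71) were among those with the largest differences. In knockdown cells 12 were called higher and 1 lower, where 2.93% and 2.42% of all genes were. Among the higher ones were Tpm2 (4.13), the non-muscle myosin heavy chain Myh9 (3.13) and the myosin light chain Myl12a (2.95). Tpm2 was near the floor in somata and dendrites, with means of 0.900 FPKM in control and 0.922 FPKM in knockdown cells. In axons its means were 18.9 and 33.0 FPKM. Of the other actin genes Acta2, the smooth muscle actin, was called higher in control axons (577 ± 297 against 86.7 ± 80.5 FPKM, log2 difference 3.42, adjusted p = 0.0465). In knockdown cells it was not called (672 ± 921 against 113 ± 75.7 FPKM, 2.13, adjusted p = 0.0931). More than 1 marker list went the same way. The fibroblast sum was 11.9 to 47.9 FPKM in control and 20.3 to 101 FPKM in knockdown axonal libraries. In somata and dendrites it was 1.94 to 12.5 and 1.80 to 13.9 FPKM. Of the 6 fibroblast genes, 4 were higher in axons by mean in both conditions and 2 lower. All 4 genes of dividing cells were higher in both, as were 3 of 9 astroglial genes in control and 4 of 9 in knockdown cells. The part of these markers was not tested.

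Of 16 tested growth cone and membrane-bound proteins 2 were called lower in control axons and none higher, Crmp1 (log2 difference -1.46, adjusted p = 0.0173) and Stmn2, a tubulin-binding protein of growing axons (-1.31, adjusted p = 0.00638), where 0.661% of all genes were called lower. In knockdown cells 8 were called lower and none higher, where 2.42% of all genes were lower, among them Nrn1 (-2.09), Crmp1 (-1.67), Stmn2 (-1.37) and Dpysl3 (-1.36). Their median was -0.69 in control and -0.98 in knockdown cells, against -0.03 and -0.05 over all genes. The summed neuron markers were lower in axons too, with all 6 of them lower by mean in both conditions, and Stmn2 is itself 1 of these 6. Their part was not tested. Of 26 genes for nucleation and elongation none was called in control cells by limma, where 4 were higher and 3 lower at an unadjusted p under 0.05 (8.09% and 7.31% of all genes). In knockdown axons 2 were called lower, where 2.42% of all genes were, Wasf1 (-2.35) and Abi2 (-1.12), both parts of the WAVE complex that activates Arp2/3. Of 15 genes for monomer binding and turnover none was called in either condition by limma, with 1 higher and 3 lower in control and 2 higher and 1 lower in knockdown cells at an unadjusted p under 0.05, where 9.52% of all genes were higher and 11.1% lower in knockdown cells.

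The 10 genes did not share 1 profile over the 20 libraries. Their log2 levels, centred on their own mean, differed from the mean profile of the 10 by 0.23 (Cfl1) to 0.62 (Actb) on average. Among 3052 other genes that averaged 20 FPKM or more, those closest to that mean profile were Gnas (0.10), Uba1 (0.17), Cct2 (0.18), Pgam1 (0.18) and Psap (0.19). They were picked for being closest, so their distances are no measure for those of the members.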

How the data were processed

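The authors amplified total RNA of each compartment, sequenced it and deposited, for each of 20 libraries, FPKM values with an interval for 39174 genes, which the labels' processing notes credit to Cufflinks 2.2.1 on GRCm38 (reads checked with FastQC 0.10.1). The aligner's settings and the read length are not given in the sources used here. The files hold no counts, so the interval was read as ± 2 SD of an implied number of fragments and relative depth taken over 680 genes with more than 3 in every library. Because cDNA was amplified by PCR, this covers counting error only.

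Scaling used the median of ratios, within a compartment (5112 axonal and 7619 somatodendritic genes) for knockdown against control and over all 20 libraries (4577 genes) for compartments. Values were tested on log2(FPKM + 1) with limma 3.58.1 (lmFit, eBayes with trend) in R 4.3.3. This scale understates changes of low genes. Scripts ran on Python 3.11.15 with numpy 2.4.6, pandas 2.3.3, scipy 1.17.1 and matplotlib 3.10.9, and were tested on simulated data. No pair of libraries held identical values. Sequences and coordinates come from GENCODE M21. The study's own test is not given in its methods.

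The members, marker lists and pathway lists were chosen with earlier results of these data known. Named are the members, Tardbp, of each list up to 4 called genes with the largest change (else the 2 with the smallest p, of which the text gives counts), and the 5 genes nearest the members' mean profile. Some results that this rule would name, with the compartment result of 1 of the lists, are not reported here. Diaph1, Diaph2, Diaph3 and Slc18a3 were not analysed here. Alternatives were other scalings, a pseudocount of 0.1, no filter, array weights, other sets of libraries, a replicate block and leaving out each library. Leaving out libraries with a relative depth below 0.5 and the look at knockdown axonal replicate 1 were chosen after seeing the data.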

Additional observations from a re-analysis of the deposited data

Results flagged for a closer look

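Of 60 groups of libraries, 8 (13.3%) held a value farther from its group than Dixon's 95% limit, where chance gives about 1 in 20. The library labelled knockdown axonal replicate 1 stood out with Actb at 4494 FPKM (the others at 1302 to 2459 FPKM) and with Pfn1 at 811 FPKM (the others at 210 to 431 FPKM). Tmsb10 was low in control somatodendritic replicate 4, at 1380 FPKM against 1648 to 1680 FPKM. Marcks was high in the shallow knockdown somatodendritic replicate 5, at 38.8 FPKM against 20.9 to 25.9 FPKM, and so was its ratio to Marcksl1, at 0.291 against 0.132 to 0.183. The same ratio was high in the shallow knockdown axonal replicate 5, at 0.496 against 0.156 to 0.247. The ratio of Actb to Actg1 was low in control axonal replicate 4, at 6.54 against 7.73 to 7.96. Tardbp was low in control somatodendritic replicate 2, at 19.0 FPKM against 29.6 to 30.8 FPKM.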

How the results depend on the processing

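Scaling moved the median log2 change of all genes from -0.13 to 0.04 (FPKM as deposited) and 0.05 (quantile normalization) for knockdown in somata and dendrites, from -0.17 to 0.23 and 0.05 in axons, and from -0.03 to -0.47 and -0.07 between control compartments. With it the calls over all genes went from 30 higher and 104 lower to 150 and 83 as deposited, from 2 and 54 to 14 and 43, and, between compartments, from 202 and 93 to 99 and 480 in control and from 412 and 341 to 316 and 674 in knockdown cells. Of the members, Tmsb10 in somata and dendrites kept its call with quantile normalization and array weights, 3 were called as deposited, and 0 with a pseudocount of 0.1, no filter, a relative depth of at least 0.5, all 20 libraries in 1 fit or a replicate block. In axons 1 was called as deposited and with all 20 libraries. Between control compartments 7 were called with array weights, where calls over all genes rose to 689 higher and 564 lower, and between knockdown compartments 1 when only those libraries were fitted, where they fell to 120 and 59. Leaving out 1 library gave 0 to 1, 0 to 0, 1 to 4, 3 to 3 and 0 to 0 calls in the comparisons knockdown in somata and dendrites, knockdown in axons, control compartments, knockdown compartments and difference of effects. Fewer libraries were tested there, and the cause of the other moves was not tested.

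The replicate block left 1 call between control compartments (Basp1, adjusted p = 0.0254 in limma; 0.0519 for Actb, 0.0819 for Pfn2 and 0.102 for Gap43, with 91 and 29 calls over all genes) and 3 between knockdown compartments, and gave 0.153 for Tmsb10 in somata and dendrites. Same-numbered libraries deviated together with r of -0.11 to 0.04 (control compartments), -0.09 to 0.12 (knockdown compartments), -0.02 to 0.16 (axons) and -0.04 to 0.17 (somata and dendrites). In axons 3 of 4 pairs of control and knockdown were above 0.1 and 3 of 4 matched best with their own number, a hint from the data and not the design, and since not every pair was above 0.1 the numbers were not taken as pairs. Sign flips over 6 numbers gave an adjusted p of 0.125 for the knockdown compartment ratios of Actb to Actg1 (0.81) and Pfn1 to Pfn2 (1.75). With so few sign patterns no adjusted p under 0.05 could be reached in that test, so it decides nothing about these ratios.

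Without libraries under a relative depth of 0.5 the ratio differences were 0.79 (Actb to Actg1) and 1.97 (Pfn1 to Pfn2) between knockdown compartments and, for knockdown in somata and dendrites, 0.62 (Pfn1 to Pfn2), -0.97 (Tmsb4x to Tmsb10) and -1.37 (Marcks to Marcksl1), each at an adjusted p of 0.0508, where the fewer libraries allow no exact p below 0.0286 before adjustment. With medians, Tmsb4x to Tmsb10 was -1.17 in somata and dendrites (adjusted p = 0.102) and -2.15 in axons (adjusted p = 0.0457). Leaving out 1 library gave -0.41 to 0.48 for Pfn1 to Pfn2, -2.47 to -1.65 for Tmsb4x to Tmsb10 and -0.32 to 0.050 for Marcks to Marcksl1 in knockdown against control axons, -0.15 to 0.66 for Tmsb4x to Tmsb10 between knockdown compartments, and -1.33 to -0.98 for Marcks to Marcksl1 for knockdown in somata and dendrites. Axonal Tardbp was at 35.1% of control after scaling (exact permutation p = 0.00952) and at 36.5 to 62.5% without 1 library.

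Uncalled differences changed direction as follows. For knockdown in somata and dendrites Actb was 0.012 as deposited and 0.0017 with quantile normalization, and Actg1 0.15 as deposited, 0.0035 with array weights, 0.030 with the block, 0.049 at the depth limit and -0.14 to 0.0048 without 1 library. For knockdown in axons, as deposited, with the block and at the depth limit, Cfl1 was 0.33, 0.12 and 0.085 and Pfn1 0.48, 0.073 and 0.032, while Pfn2 was 0.42 as deposited and 0.18 with the block, and Marcks 0.043 as deposited. Without 1 library they were -0.34 to 0.054 (Cfl1), -0.26 to 0.11 (Pfn1), -0.36 to 0.15 (Pfn2) and -0.078 to 0.30 (Gap43). Between control compartments as deposited Actg1 was -0.17, Cfl1 -0.47 (-0.073 with quantile normalization) and Tmsb4x -0.17. Between knockdown compartments Tmsb4x was -0.24 as deposited, -0.19 with quantile normalization and -0.25 to 0.51 without 1 library. For the difference of effects Tmsb10 was -0.077 with quantile normalization, Gap43 -0.027 with array weights and -0.20 at the depth limit, and Basp1 0.32 as deposited and 0.051 with array weights. Without 1 library these were -0.018 to 0.49 (Pfn2), -0.68 to 0.067 (Tmsb4x), -0.24 to 0.14 (Gap43) and -0.12 to 0.11 (Basp1).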
